A study of Rattus norvegicus with 21 samples.

Results

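Growth hormone (GH, encoded by Gh1) is made by the somatotrophs of the anterior pituitary. Its release is driven by growth hormone-releasing hormone through the receptor Ghrhr, which raises cyclic AMP, and by ghrelin through Ghsr, and it is restrained by somatostatin, whose receptors (Sstr1, Sstr2, Sstr3 and Sstr5 here) act through inhibitory G proteins. GH acts on its targets, the pituitary among them, through the receptor Ghr, which signals by JAK2 and STAT5. The 8 genes were chosen by name and were read by 13 probe sets, out of 31042 probe sets other than the manufacturer's controls (8 of the 14217 genes that a probe set with 1 gene symbol names). Of these genes, 4 had 1 probe set, 3 had 2 and Sstr1 had 3.

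Anterior pituitaries of male rats of the inbred strains Brown Norway (BN), Copenhagen (COP) and ACI were hybridised singly to 21 Affymetrix Rat Genome 230 2.0 arrays. In each strain, 4 DES-treated rats carried an implant with 5 mg of diethylstilbestrol, a synthetic estrogen, and 3 control rats carried empty tubing; both were implanted at 9 weeks and killed at 21 weeks of age, 4 hours after 50 mg/kg of BrdU, which every rat received. ACI and BN rats came from one supplier and COP rats from another, so strain and supplier cannot be told apart in comparisons with COP. The sample notes give 1 fewer independent replicate than rats for each group, whereas here 1 array stands for 1 rat, and all errors rest on that reading. The arrays had been scaled to trimmed means of 500.14 to 500.2, with median signals of 119 to 152. In bulk tissue, a change in the share of a cell type and a change in RNA per cell cannot be told apart.

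Signals below are the scaled intensities. Tests used limma on log2(signal + 16), a scale that understates changes of dim probe sets, with Benjamini-Hochberg adjusted p-values over 21828 probe sets, and a difference was called at an adjusted p under 0.05. After DES treatment, 8 of the 13 member probe sets were called in ACI rats (3 higher, 5 lower), against 49.1% of all probe sets tested (19.8% higher, 29.3% lower). In COP rats 8 were called (4 higher, 4 lower), against 43.2% of all (17.9% higher, 25.2% lower), and in BN rats 9 were called (4 higher, 5 lower), against 33.5% of all (14.1% higher, 19.5% lower). With so large a part of the array changed, these counts are not read as particular to the GH axis. Over all probe sets, 4328 were higher and 6398 lower in ACI rats, with a median log2 change of -0.13, whereas after centring each array on its median 6001 were higher and 4445 lower, with a median of 0.08. The same centring gave 4669 higher and 4426 lower in COP rats (3913 and 5506 without it) and 3655 higher and 3401 lower in BN rats (3073 and 4246 without it). Of the 12 member probe sets that passed the filter on low values, only Gh1 in ACI rats had a change that turned in sign under this centring.

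Markers of other cells moved with treatment. Over all 11738 genes tested, 23.2%, 21.6% and 17.0% rose in ACI, COP and BN rats, and 32.5%, 28.1% and 22.6% fell. Counts of markers that rose or fell are to be read beside these shares. The summed signal of 5 gonadotroph markers was 976 to 3104 in DES-treated rats and 22368 to 34678 in controls, with 5, 5 and 3 of the 5 fallen in ACI, COP and BN rats. That of 5 folliculostellate and stem cell markers was 1657 to 6432 in DES-treated rats and 10608 to 14656 in controls (5, 3 and 3 fallen), and that of 7 leukocyte and macrophage markers was 5828 to 13978 in DES-treated rats and 1654 to 4255 in controls (6, 6 and 4 of 6 tested risen). Within the 6 somatotroph markers on the array, which include Gh1, Ghrhr and Ghsr, 4 fell in each strain, but the sum, which Gh1 sets, overlapped between treatments in ACI and COP rats and was higher in BN DES-treated rats (38854 to 66322) than in BN controls (33064 to 35757). The lactotroph sum was likewise higher, without overlap, in COP DES-treated rats (44446 to 56577, against 40305 to 42787 in COP controls) and in BN DES-treated rats (39075 to 71116, against 33846 to 37913 in BN controls), and overlapped in ACI rats. Of the 6 lactotroph markers tested, 0 rose and 2 fell in ACI rats, 1 rose and 2 fell in COP rats, and 2 rose and 2 fell in BN rats. Prl rose in COP (0.62, adjusted p = 0.00926) and BN rats (0.77, adjusted p = 0.00252) and had a log2 change of 0.40 in ACI rats (adjusted p = 0.0758), whereas the receptor genes Agtr1b (-3.35, -5.88 and -3.49 in ACI, COP and BN rats) and Prlr (-2.03, -1.55 and -2.04) fell in every strain. These are values as the arrays were scaled. The dependence on scaling that is given below for Gh1 was not examined for Prl or for the marker sums. The thyrotroph sum was lower, without overlap, in ACI DES-treated rats (9800 to 10738, against 26738 to 39848 in ACI controls) and in COP DES-treated rats (8793 to 13500, against 31829 to 33502 in COP controls), and overlapped in BN rats, and the corticotroph and melanotroph sum followed the same pattern. The endothelial sum was lower in ACI and higher in BN DES-treated rats than in their controls, without overlap, and overlapped in COP rats. The neural lobe and nerve sum was lower without overlap in every strain, as in BN DES-treated rats (704 to 935, against 1239 to 1454 in BN controls). Of its 4 tested markers, though, only 1, 2 and 1 had fallen in ACI, COP and BN rats. The red blood cell sum overlapped in every strain. The neural lobe gene Avp passed the 40th percentile on 2 of 21 arrays. The part of these shifts in the changes of the members was not tested.

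The hormone itself, Gh1 rose after DES treatment in COP and BN rats as the arrays were scaled (after quantile normalization the sign turned in COP rats, at -0.15) and was not called in ACI rats. Its probe set (1370841_a_at) had signals of 28419, 32614, 29438 and 28570 in ACI DES-treated rats, against 21833, 29845 and 42787 in ACI controls. The DES-treated values lay inside the range of the controls, and the log2 change was -0.03 (95% interval -0.42 to 0.36, adjusted p = 0.912). In COP DES-treated rats the signals were 34658, 35690, 38580 and 42044, against 26104, 25647 and 27685 in COP controls, with no overlap. In BN DES-treated rats they were 35951, 32920, 61190 and 48692, against 20519, 23638 and 26225 in BN controls, again with no overlap. The log2 change was 0.51 ± 0.19 (SE) in COP rats (adjusted p = 0.0325) and 0.89 ± 0.19 in BN rats (adjusted p = 0.000795), and the response was smaller in ACI than in BN rats by a log2 difference of 0.92 (-0.92 ± 0.26, adjusted p = 0.0219, limma interaction). From the highest group mean down, the order was BN DES-treated, COP DES-treated, ACI control, ACI DES-treated, COP control and BN control, and only ACI DES-treated and COP control rats, among neighbours in that order, had ranges that did not overlap.

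The size of the Gh1 rise in COP and BN rats varied with how the signals were scaled. In BN rats the call was kept in 12 of the 13 alternatives, all but quantile normalization, and in all 21 fits without 1 array. The cre transcripts that are spiked into every hybridisation at a set amount also read higher on average after DES treatment. They read 20926 to 45950 in BN DES-treated rats against 16537 to 19326 in BN controls. In COP rats they read 24706 to 31465 in DES-treated rats against 18529 to 19095 in controls. In ACI rats the ranges overlapped, at 25023 to 29815 in DES-treated rats against 13220 to 27881 in controls. Over the 21 arrays, deviations of Gh1 from its group means followed those of the cre controls (Pearson's r = 0.932, Spearman's rho = 0.794). The permutation p was 1e-05 for r, the smallest that the permutations can give, and 8e-05 for rho. The permutations shuffled deviations freely over all arrays, although deviations within a group depend on one another and their spread differed between groups. Both p-values are therefore approximate. Without the 2 arrays farthest from the median of the cre deviations, r was 0.884. It was 0.872 within the 12 arrays numbered 1 and 2 and 0.899 within the 9 numbered 3 and 4. Each of these subsets kept an array with a far cre deviation, ACI control replicate 1 and BN DES-treated replicate 3 respectively. The subsets are therefore not independent support. Gh1 with cre was the 1 relation of this kind that was computed. With the cre signal as a covariate, the Gh1 changes were -0.36 in ACI (adjusted p = 0.000784), 0.07 in COP (adjusted p = 0.56) and 0.37 in BN rats, where Gh1 was still called. After quantile normalization, they were -0.48 in ACI, where Gh1 was then called lower, -0.15 in COP (adjusted p = 0.113) and 0.17 in BN rats (adjusted p = 0.0892). Quantile normalization sets each rank to the same value on all arrays. Gh1 read up to 61190 where the highest signal of any probe set was 71814, so this setting leaves it little room to change and cannot decide the size of its change.

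The ACI minus BN difference in the Gh1 response stayed negative in these settings, at -0.73 with the cre covariate (adjusted p = 5.65e-05) and -0.65 after quantile normalization (adjusted p = 0.000238). The value after quantile normalization has the limit given above and is not counted as support. The difference was not called after median centring (-0.79, adjusted p = 0.0595), without ACI control replicate 3 (-0.67, adjusted p = 0.0797) or without BN control replicate 1 (-0.83, adjusted p = 0.0677). Nor was it called with only the groups compared in the fit (adjusted p = 0.0608) or with only the arrays numbered 1 and 2 (-0.39, adjusted p = 0.117), and over the alternatives it ran from -1.62, with only the arrays numbered 3 and 4, to -0.39. In COP rats the rise of Gh1 was not called when any one of control replicates 1, 2 and 3 or DES-treated replicates 3 and 4 was left out (adjusted p between 0.0573 and 0.0886).

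**Figure D1:**
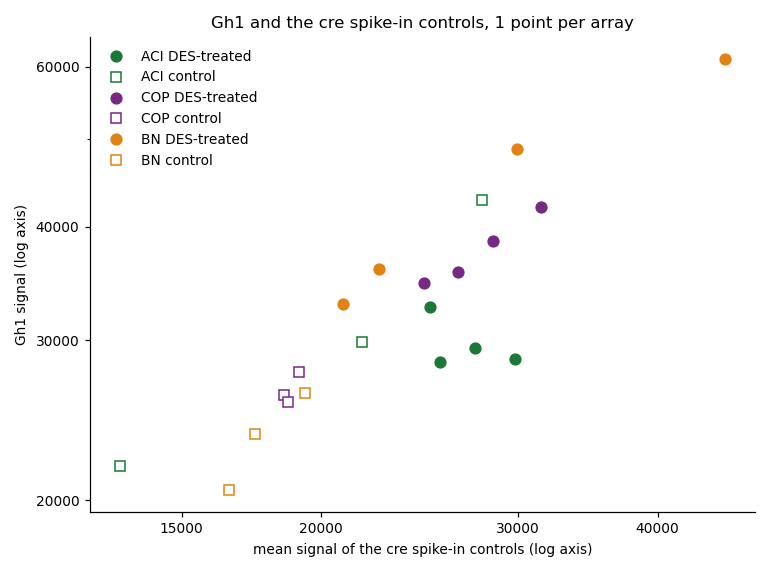
Each point is 1 array, with the mean signal of the 4 cre spike-in probe sets on the x axis and the Gh1 signal on the y axis (both log axes); filled circles are DES-treated rats and open squares controls, coloured by strain. BN DES-treated replicate 3 stands at the upper right, with 61190 for Gh1 and 45950 for cre, and ACI control replicate 1, with 21833 and 13220, at the lower left.

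Ghrhr, the receptor for growth hormone-releasing hormone, fell in all 3 strains on both of its probe sets. Probe set 1370730_a_at had signals of 63.4, 144.8, 67.4 and 91.6 in ACI DES-treated rats, against 411.3, 435.7 and 474.7 in ACI controls. In COP DES-treated rats it read 151.7, 153.6, 101.3 and 136.9, against 653.8, 598.3 and 353.0 in COP controls, and in BN DES-treated rats 347.5, 241.4, 257.2 and 220.6, against 768.4, 986.2 and 545.2 in BN controls. No DES-treated rat reached a control rat of its own strain. The log2 change was -2.14 ± 0.25 (SE) in ACI (adjusted p = 2.65e-07), -1.83 ± 0.25 in COP (adjusted p = 3.49e-06) and -1.45 ± 0.25 in BN rats (adjusted p = 0.000105), and the exact two-sided permutation test over the 35 splits of each strain's 7 arrays gave p = 0.0286, its smallest possible value, in each.

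The other Ghrhr probe set (1369494_a_at) averaged 175.9 ± 24.0 in ACI DES-treated rats and 461.6 ± 75.0 in ACI controls (SD, n = 4 and 3), 171.4 ± 32.3 and 700.8 ± 245 in COP rats, and 378.6 ± 65.3 and 944.2 ± 332 in BN rats, DES-treated before control. Its log2 changes were -1.31, -1.89 and -1.23 in ACI, COP and BN rats, all called, and none of its ranges overlapped within a strain. Among DES-treated rats, Ghrhr was lower in ACI than in BN rats by both probe sets (-1.43, adjusted p = 5.37e-05, and -1.03, adjusted p = 0.000934), and lower in COP than in BN rats by both (-0.89, adjusted p = 0.0074, and -1.07, adjusted p = 0.00107). Among controls, ACI was lower than BN on 1369494_a_at only (-0.95, adjusted p = 0.023), a call that was lost without ACI control replicate 1 or 2 or BN control replicate 1 or 2 (adjusted p between 0.0935 and 0.144), while 1370730_a_at gave -0.74 (adjusted p = 0.111). In the order of group means on 1370730_a_at, the 3 control groups overlapped, BN DES-treated rats stood apart from both neighbours, and COP and ACI DES-treated rats overlapped. The fall itself was not shown to differ between strains: the ACI minus BN difference in response was -0.69 (95% interval -1.42 to 0.04) on 1370730_a_at and -0.08 (-0.78 to 0.61) on 1369494_a_at.

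The promoters of Ghrhr and Sstr3, which were called in every strain on each of their probe sets and lay above the 40th percentile on most arrays of both treatments, are shown with the bases that match an estrogen response element or its half-site in capitals. They are RefSeq sequences on build GRCr8, 250 bases before to 50 after the start of transcription, 5′ to 3′ on the strand of the gene, of which 7 of the 8 genes had 1 or more (8 entries in all, 2 of them for Ghrhr). Ghrhr lies on the plus strand of chromosome 4, with starts in chr4:85830236-85830535 and chr4:85849655-85849954.
Ghrhr, upstream start: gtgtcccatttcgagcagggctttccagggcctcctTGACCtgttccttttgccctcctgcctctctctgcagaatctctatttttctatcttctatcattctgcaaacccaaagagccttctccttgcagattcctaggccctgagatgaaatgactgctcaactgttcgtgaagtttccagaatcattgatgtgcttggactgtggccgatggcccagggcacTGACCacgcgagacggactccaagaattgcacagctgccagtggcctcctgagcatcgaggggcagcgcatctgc
Ghrhr, downstream start: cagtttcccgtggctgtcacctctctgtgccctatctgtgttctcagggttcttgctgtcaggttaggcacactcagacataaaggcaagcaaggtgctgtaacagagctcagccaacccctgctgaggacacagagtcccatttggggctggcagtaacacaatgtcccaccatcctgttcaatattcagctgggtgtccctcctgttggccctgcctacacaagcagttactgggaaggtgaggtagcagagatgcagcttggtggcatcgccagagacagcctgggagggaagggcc
Searched on both strands, the palindromic estrogen response element had no match in any of the 8 entries, and is held by 0.0269% of the 33469 promoters of the table. The half-site GGTCA, which is part of that palindrome, matched at 2 places in the upstream Ghrhr promoter, starting 214 and 25 bases before the start of transcription, at 1 place in the Ghsr promoter and at none in the others, and 40.5% of all promoters hold it. The site ATGNATAA, bound by POU1F1 in the Gh1 promoter, had no match in the 8 entries and is held by 3.0% of all promoters. Gh1 was the gene without an entry, so its own promoter was not searched for any of these motifs. A match says only that these letters are present in the window.

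Ghsr, the ghrelin receptor, was not called in any strain. Its signals ran between 90.6 and 139.4 in ACI DES-treated rats and between 61.2 and 105.3 in ACI controls, between 52.6 and 188.0 in COP DES-treated rats and between 66.9 and 98.7 in COP controls, and between 62.8 and 196.9 in BN DES-treated rats and between 88.8 and 99.4 in BN controls. The ranges overlapped in every strain, and the log2 changes of 0.35, 0.23 and 0.16 had 95% intervals from -0.56 up to 1.08 across the strains.

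The somatostatin receptors did not move as 1 group: Sstr3 rose in all 3 strains, Sstr2 rose in all 3 on 1 of its 2 probe sets, Sstr1 rose in ACI and COP rats on 1 of its 3, and Sstr5 fell in ACI and BN rats. Sstr3 (1368598_at) had signals of 1068.9, 964.7, 1248.0 and 1052.0 in ACI DES-treated rats, against 158.4, 167.5 and 161.0 in ACI controls. In COP DES-treated rats it read 972.6, 830.7, 946.7 and 939.2, against 162.3, 171.6 and 177.8 in COP controls. In BN DES-treated rats it read 1457.4, 1247.0, 1138.9 and 1474.4, against 420.4, 423.5 and 343.3 in BN controls. Every DES-treated rat lay above every control rat, whatever the strain. The mean signals differed 6.68-fold in ACI, 5.41-fold in COP and 3.36-fold in BN rats, with log2 changes of 2.62 ± 0.12 in ACI (SE, adjusted p = 1.48e-13), 2.33 ± 0.12 in COP (adjusted p = 1.47e-12) and 1.71 ± 0.12 in BN rats (adjusted p = 5.06e-10), and the exact permutation p was 0.0286 in each. Counted from the largest rise, Sstr3 stood at rank 203, 221 and 294 of the 21828 probe sets in ACI, COP and BN rats.

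The strains differed in Sstr3 before treatment and in its response. Among controls, the signal averaged 162.3 ± 4.7 in ACI and 395.7 ± 45.4 in BN rats (SD, n = 3 each), a log2 difference of -1.20 ± 0.13 (adjusted p = 1.92e-06). COP controls, at 170.6 ± 7.8, were also below BN controls (-1.14 ± 0.13, adjusted p = 4.11e-06). After treatment the gap was narrower: ACI DES-treated rats averaged 1083 ± 119 and BN DES-treated rats 1329 ± 164 (n = 4 each, -0.29 ± 0.11, adjusted p = 0.0546), while COP DES-treated rats averaged 922.3 ± 62.7 and stayed below BN (-0.51 ± 0.11, adjusted p = 0.00193). The rise was larger in ACI than in BN rats by 0.91 on the log2 scale (95% interval 0.56 to 1.27, adjusted p = 0.000964) and larger in COP than in BN rats by 0.62 (0.27 to 0.98, adjusted p = 0.0364), and the ACI minus COP difference was 0.29 (-0.07 to 0.65, adjusted p = 0.623). The COP minus BN difference was not called when any one of 10 of the 14 arrays of those strains was left out (all but COP DES-treated replicate 2, BN control replicate 3 and BN DES-treated replicates 1 and 4), at 0.55 to 0.65 with adjusted p between 0.053 and 0.0991. Ordered by mean over the 6 groups, the 3 DES-treated groups came first with ranges that overlapped, BN controls stood apart from both neighbours, and COP and ACI controls overlapped. Sstr3 lies on the minus strand of chromosome 7, and its promoter (chr7:111980201-111980500, GRCr8), shown because Sstr3 had the largest rise of the members in each strain, held none of the searched motifs.
Sstr3: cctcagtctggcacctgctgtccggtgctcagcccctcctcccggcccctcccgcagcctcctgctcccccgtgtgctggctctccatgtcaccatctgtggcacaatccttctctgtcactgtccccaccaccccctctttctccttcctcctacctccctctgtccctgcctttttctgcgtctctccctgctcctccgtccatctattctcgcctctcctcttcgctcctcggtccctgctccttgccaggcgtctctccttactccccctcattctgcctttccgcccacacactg

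**Figure D2:**
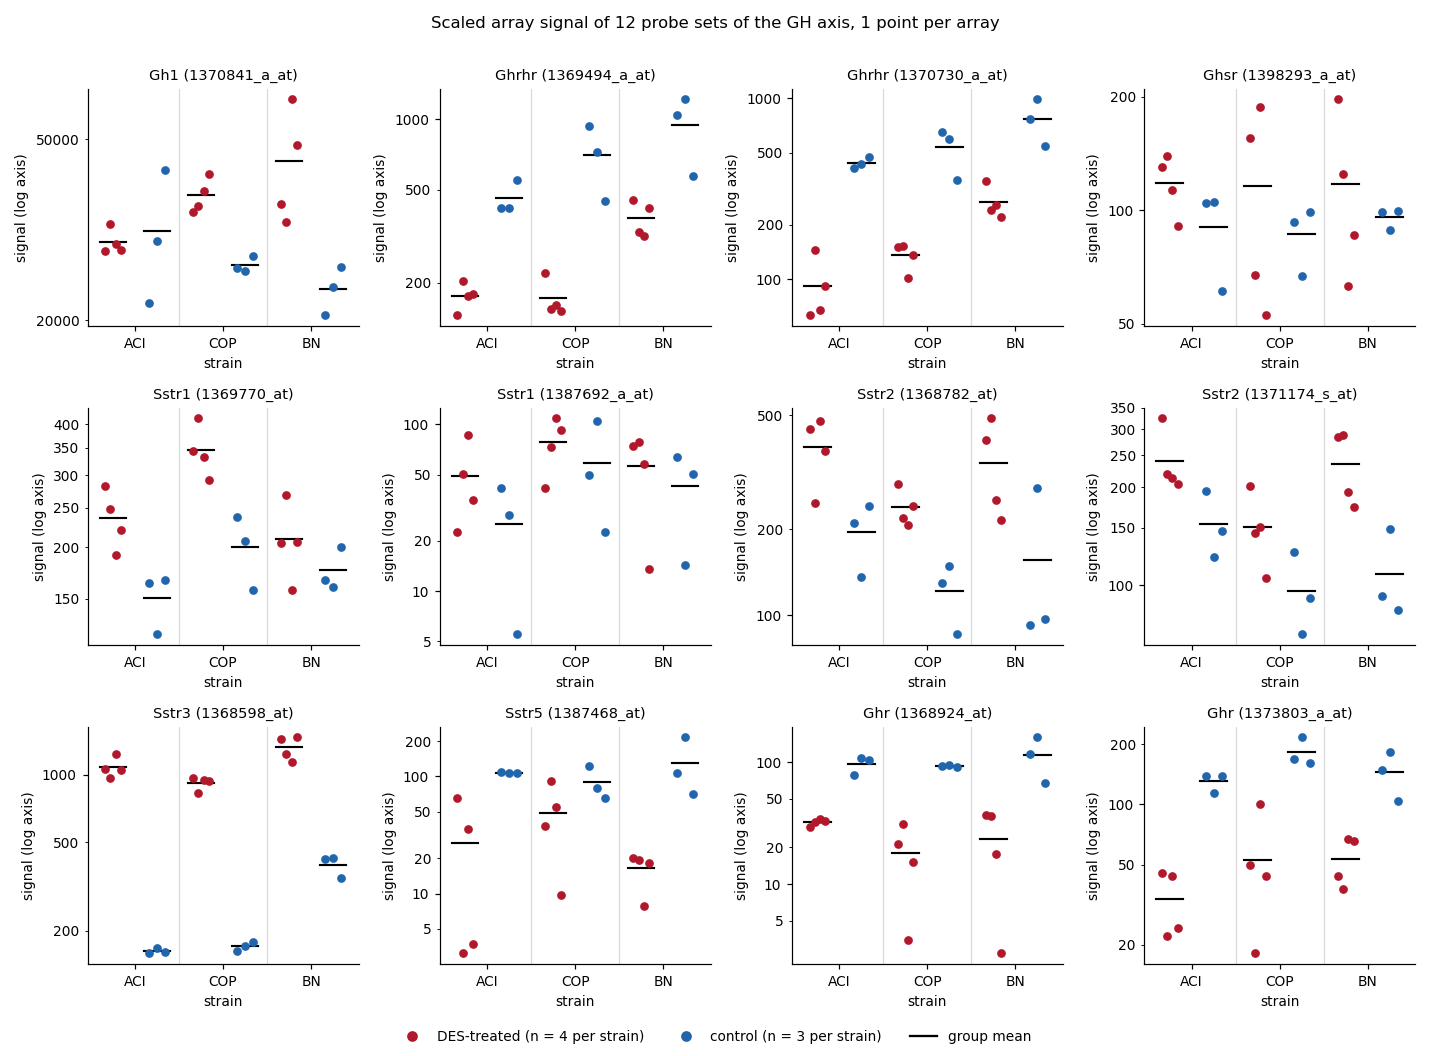
Scaled signal (y, log axis) of the 12 member probe sets that passed the filter on low values, 1 point per array and a bar at the group mean, by strain (x) with DES-treated rats in red left of control rats in blue. The Sstr3 panel shows all 12 DES-treated arrays above all 9 control arrays, from 830.7 up against 423.5 and below.

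Sstr2, the receptor subtype that binds octreotide most tightly, had 2 probe sets. On 1368782_at it read 448.0, 247.7, 476.2 and 373.8 in ACI DES-treated rats, against 210.4, 135.4 and 241.0 in ACI controls. It read 288.5, 218.5, 206.7 and 241.6 in COP DES-treated rats, against 129.4, 148.9 and 85.7 in COP controls, and 409.3, 487.8, 253.7 and 214.5 in BN DES-treated rats, against 92.3, 277.7 and 97.0 in BN controls. The groups were apart in ACI and COP rats and overlapped in BN rats, where control replicate 2 lay above 2 DES-treated rats. The log2 changes were 0.92 (adjusted p = 0.0219), 0.91 (adjusted p = 0.0269) and 1.15 (adjusted p = 0.00851), with an SE of 0.32 in each strain. The second probe set (1371174_s_at) gave 0.59 (adjusted p = 0.06), 0.57 (adjusted p = 0.0769) and 1.01 (adjusted p = 0.00372), so that both were called only in BN rats in this fit. Over the 6 groups, neighbours in the order of means overlapped on both probe sets, as they did for Ghsr.

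The Sstr2 calls were not firm. On 1368782_at the call was lost in ACI rats without control replicate 2 or DES-treated replicate 1 or 3 (adjusted p between 0.0567 and 0.126), in COP rats without control replicate 3 or DES-treated replicate 1 (adjusted p between 0.0673 and 0.138) and in BN rats without control replicate 1 or 3 (adjusted p between 0.0611 and 0.0689). On 1371174_s_at the change became called in ACI rats without control replicate 1 (0.75, adjusted p = 0.0383) and in COP rats without control replicate 1 (0.75, adjusted p = 0.0402) or DES-treated replicate 4 (0.71, adjusted p = 0.0357). It was also called in both strains after median centring (0.80 in ACI, adjusted p = 0.01, and 0.67 in COP rats, adjusted p = 0.033), after quantile normalization, with the cre covariate and with either block on replicate numbers, and in ACI rats with 64 added or with only the groups compared.

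Sstr1 could be followed on 1 of its 3 probe sets. On 1369770_at it averaged 235.7 ± 38.8 in ACI DES-treated rats and 150.9 ± 24.4 in ACI controls, a log2 change of 0.59 (adjusted p = 0.0135), which was lost without ACI control replicate 2 (0.46, adjusted p = 0.086). It read 344.2, 412.9, 333.2 and 292.2 in COP DES-treated rats, against 237.9, 207.6 and 157.1 in COP controls, with no overlap (0.75, adjusted p = 0.00307). BN DES-treated rats averaged 209.5 ± 45.3 and BN controls 175.9 ± 21.9, with overlap (0.22, adjusted p = 0.412). Among DES-treated rats, COP lay above BN (0.69 ± 0.18, adjusted p = 0.00654), with no overlap between the 4 and 4 arrays, and COP DES-treated rats were the one group whose range stood apart from its neighbour in the order of means. The probe set 1387692_a_at was above the 40th percentile on 5 arrays, read 5.5 to 108.8 and was not called in any strain, and 1371201_at, at 3.3 to 12.8, was below the 40th percentile of signal on all 21 arrays and gives no usable change.

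Sstr5 (1387468_at) was dim: 7 of the 9 control arrays but 1 of the 12 DES-treated arrays were above the 40th percentile of their array, so the probe set was in the test through its controls. It read 65.4, 3.1, 35.9 and 3.7 in ACI DES-treated rats, against 108.5, 107.1 and 106.6 in ACI controls. It read 37.7, 92.0, 55.2 and 9.7 in COP DES-treated rats, against 122.0, 79.0 and 65.7 in COP controls, and 20.2, 19.3, 7.8 and 18.3 in BN DES-treated rats, against 107.7, 215.3 and 70.8 in BN controls. The groups were apart in ACI and BN rats and overlapped in COP rats. Sstr5 fell in ACI (-1.80 ± 0.49, adjusted p = 0.00436) and BN rats (-2.08 ± 0.49, adjusted p = 0.00229) and had a log2 change of -0.84 ± 0.49 in COP rats (adjusted p = 0.18). The COP minus BN difference in response was 1.24 (95% interval -0.21 to 2.69, adjusted p = 0.368), so the strains were not shown to differ. Since the DES-treated signals were near the floor of the array, the size of the fall depended on the constant added before taking logs, at -2.88 with 1 and -0.97 with 64 in ACI rats and at -2.86 with 1 and -1.22 with 64 in BN rats. Over the 6 groups, the ranges of all neighbours in the order of means overlapped.

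Ghr, the GH receptor, was dim as well and fell in all 3 strains on both probe sets. On 1373803_a_at it read 45.6, 22.0, 43.8 and 24.2 in ACI DES-treated rats, against 138.3, 114.6 and 138.8 in ACI controls. In COP DES-treated rats it read 49.8, 18.1, 100.1 and 44.2, against 168.5, 215.9 and 161.4 in COP controls, and in BN DES-treated rats 44.0, 37.9, 67.3 and 65.7, against 149.1, 183.4 and 104.3 in BN controls. No range overlapped within a strain, and the log2 changes were -1.58 in ACI (adjusted p = 0.000335), -1.64 in COP (adjusted p = 0.000296) and -1.21 in BN rats (adjusted p = 0.00637). On 1368924_at the DES-treated signals lay between 2.7 and 37.0 and the control signals between 67.8 and 160.2 over all strains, and the log2 changes were -1.22 (adjusted p = 0.00891), -1.76 (adjusted p = 0.000521) and -1.78 (adjusted p = 0.000725). Probe set 1373803_a_at was above the 40th percentile on 9 control arrays and 1 DES-treated array, and 1368924_at on 7 control arrays and no DES-treated array, so both were in the test through their controls. Over the 6 groups, all control means stood above all DES-treated means on both probe sets, and the ranges of neighbouring groups overlapped except at that boundary. The DES-treated signals of 1368924_at were near the floor of the array, so the size of its change depended on the constant added before taking logs, at -1.55 with 1 and -0.74 with 64 in ACI rats, -2.64 and -0.95 in COP rats, and -2.63 and -1.02 in BN rats. With 1 added, the fall in ACI rats was not called (adjusted p = 0.0717). The strains were not shown to differ on either probe set (adjusted p between 0.543 and 0.991 over the 6 differences in response).

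**Figure D3:**
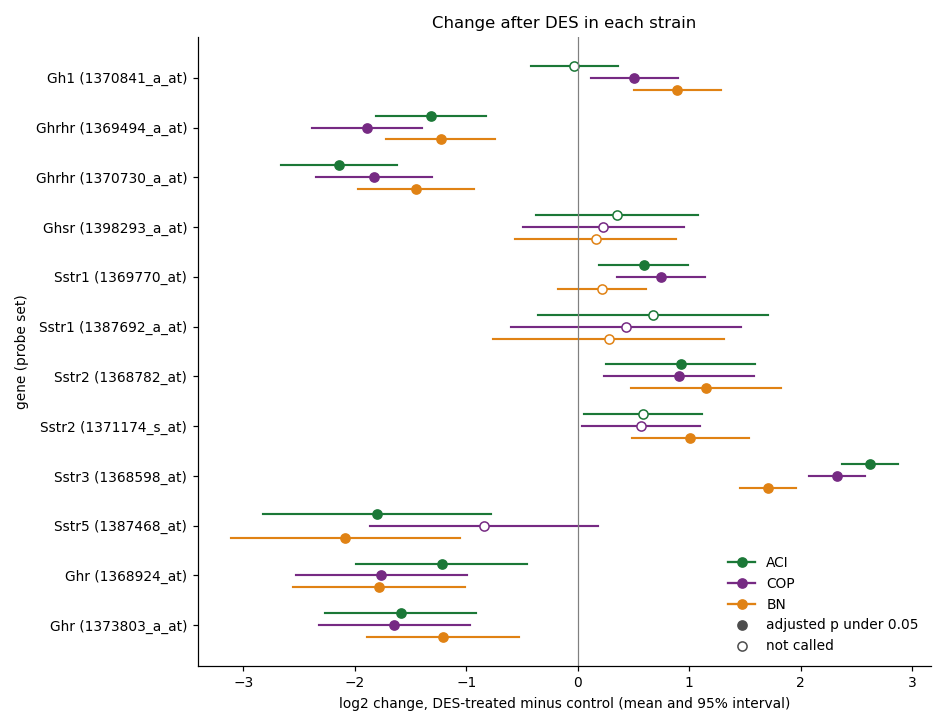
Log2 change (x; DES-treated minus control, with the 95% interval as a line) of each member probe set that passed the filter (y), coloured by strain and filled where the adjusted p was under 0.05. Sstr3 stands at 1.71 to 2.62, both Ghrhr probe sets at -2.14 to -1.23 and both Ghr probe sets at -1.78 to -1.21, while Ghsr straddles 0 in each strain.

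No member probe set was called between ACI and COP rats, either among controls (1.2% of all probe sets were called), among DES-treated rats (4.7%) or in how far they responded to DES (0.531%). Between ACI and BN rats, 2 were called among controls (6.79% of all), 3 among DES-treated rats (31.3%) and 2 in the difference in response (14.2%). Between COP and BN rats the counts were 1 among controls (5.7% of all), 4 among DES-treated rats (22.3%) and 1 in the difference in response (5.25%). These comparisons share control arrays and DES-treated arrays, so the counts are not independent. Within the strains, the values of the 2 groups did not overlap for 9 of the 13 probe sets in ACI rats (54.0% of all probe sets), 8 in COP rats (48.4%) and 8 in BN rats (36.8%). The exact permutation test gave its smallest p, 0.0286, for 20 of the 39 tests of a member probe set in a strain. That test was run on the members only. Its count has no share over all probe sets beside it and is not read as particular to the members.

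The other genes of the axis are given from 4 lists, each gene by its brightest probe set, with the counts over all 11738 genes beside them: ACI rats had 23.2% risen and 32.5% fallen, COP rats 21.6% risen and 28.1% fallen, and BN rats 17.0% risen and 22.6% fallen. Downstream of Ghrhr, in the list of GHRH and ghrelin signalling, 5 of 21 tested genes rose and 9 fell in ACI rats, 7 rose and 7 fell in COP rats, and 5 rose and 7 fell in BN rats, with median log2 changes of -0.06, -0.01 and -0.04 against -0.13, -0.08 and -0.06 over all genes. Adcy5, an adenylyl cyclase that makes cyclic AMP, averaged 73.2 ± 23.6 in ACI DES-treated rats and 595.0 ± 94.6 in ACI controls, and fell in every strain (log2 changes of -2.81, -1.95 and -1.59 in ACI, COP and BN rats). The ACI DES-treated mean was close to the 40th percentile of those arrays (67.2 to 72.7), and the size of the fall with other added constants was not computed. Adcy2, another cyclase, fell likewise (-1.25, -0.92 and -1.46). Prkar2b and Prkacb, a regulatory and a catalytic subunit of protein kinase A, fell in every strain (-1.70, -1.61 and -1.35 for Prkar2b, and -1.08, -1.03 and -0.44 for Prkacb). Pde4d, a phosphodiesterase that breaks cyclic AMP down, rose by 1.72, 1.66 and 0.76. These 5 genes were named for their small adjusted p, and other genes of the list rose. Gnas rose by 0.30, 0.48 and 0.39 as the arrays were scaled. The cyclase Adcy8 rose in ACI (1.79) and COP rats (2.39), from dim control means of 12.4 and 14.6, and was not called in BN rats (0.73, adjusted p = 0.201). No reading of the pathway as a whole was tested. Ghrh itself, at 3.1 to 44.7, was above the 40th percentile on no array and the ghrelin gene Ghrl on 1 of 21.

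In the list of somatostatin signalling, 2 of 15 tested genes rose and 7 fell in ACI rats, 2 rose and 4 fell in COP rats, and 1 rose and 7 fell in BN rats, with median log2 changes of -0.48, -0.29 and -0.52. Kcnj6 and Kcnj5 encode subunits of potassium channels that inhibitory G proteins open. Kcnj6 averaged 68.5 ± 18.1 in ACI DES-treated rats and 855.0 ± 75.5 in ACI controls, and 172.1 ± 53.6 in BN DES-treated rats and 861.4 ± 56.0 in BN controls, with log2 changes of -3.39, -3.36 and -2.27 in ACI, COP and BN rats. The DES-treated means of Kcnj6 in ACI and COP rats (63.15 in COP) were close to or below the 40th percentile of signal (67.2 to 90.8 over the arrays). The sizes of these falls with other added constants were not computed. Kcnj5 (-1.80, -1.49 and -0.74), Gnaz, an inhibitory G protein subunit (-1.22, -1.15 and -1.14), and the phosphatase Ptpn11 (-0.93, -0.69 and -0.62) fell in every strain too. Gnai1, another inhibitory subunit, rose by 1.41, 0.74 and 1.18. The ligand gene Sst and the fifth receptor gene Sstr4 were not called in any strain.

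Downstream of Ghr, in the list of GH receptor signalling, 3 of 14 tested genes rose and 2 fell in ACI rats, 3 rose and 3 fell in COP rats, and 3 rose and 2 fell in BN rats, with median log2 changes of 0.16, 0.29 and 0.19. Cish, a feedback inhibitor that STAT5 induces, averaged 99.5 ± 27.9 in ACI DES-treated rats and 332.7 ± 21.0 in ACI controls and fell in every strain (-1.62 in ACI, -1.23 in COP, -1.43 in BN rats). Igf1, the growth factor that GH induces in many tissues, averaged 975.2 ± 255 in ACI DES-treated rats and 370.8 ± 54.2 in ACI controls, and rose by 1.34, 1.22 and 0.95. Igfbp3, which carries it, rose by 1.45, 1.39 and 1.24. Ptpn1, a phosphatase, rose in BN rats (0.55, adjusted p = 0.00542) and had log2 changes of -0.26 in ACI and 0.06 in COP rats that were not called. Stat3 fell in BN rats (-0.73, adjusted p = 0.00806) and was not called in ACI (adjusted p = 0.991) or COP rats (-0.35, adjusted p = 0.178), and the difference between strains is not given for either.

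Among regulators of the somatotroph lineage and of the GH gene, 1 of 12 tested genes rose and 8 fell in ACI rats, 1 rose and 6 fell in COP rats, and 2 rose and 6 fell in BN rats, with median log2 changes of -0.85, -0.58 and -0.59. Pou1f1, the factor that the somatotroph, lactotroph and thyrotroph lineages need, averaged 5453 ± 322 in ACI DES-treated rats and 9138 ± 345 in ACI controls and fell in every strain (-0.74 in ACI, -0.71 in COP, -0.59 in BN rats). Nr3c1, the glucocorticoid receptor, fell likewise (-1.80, -1.35 and -0.79), as did Rxrg, a retinoid receptor (-1.63, -1.37 and -1.12). The zinc finger factors Bcl11a (-1.85, -1.45 and -1.25) and Zbtb20 (-1.30, -1.09 and -0.73) also fell.

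**Figure D4:**
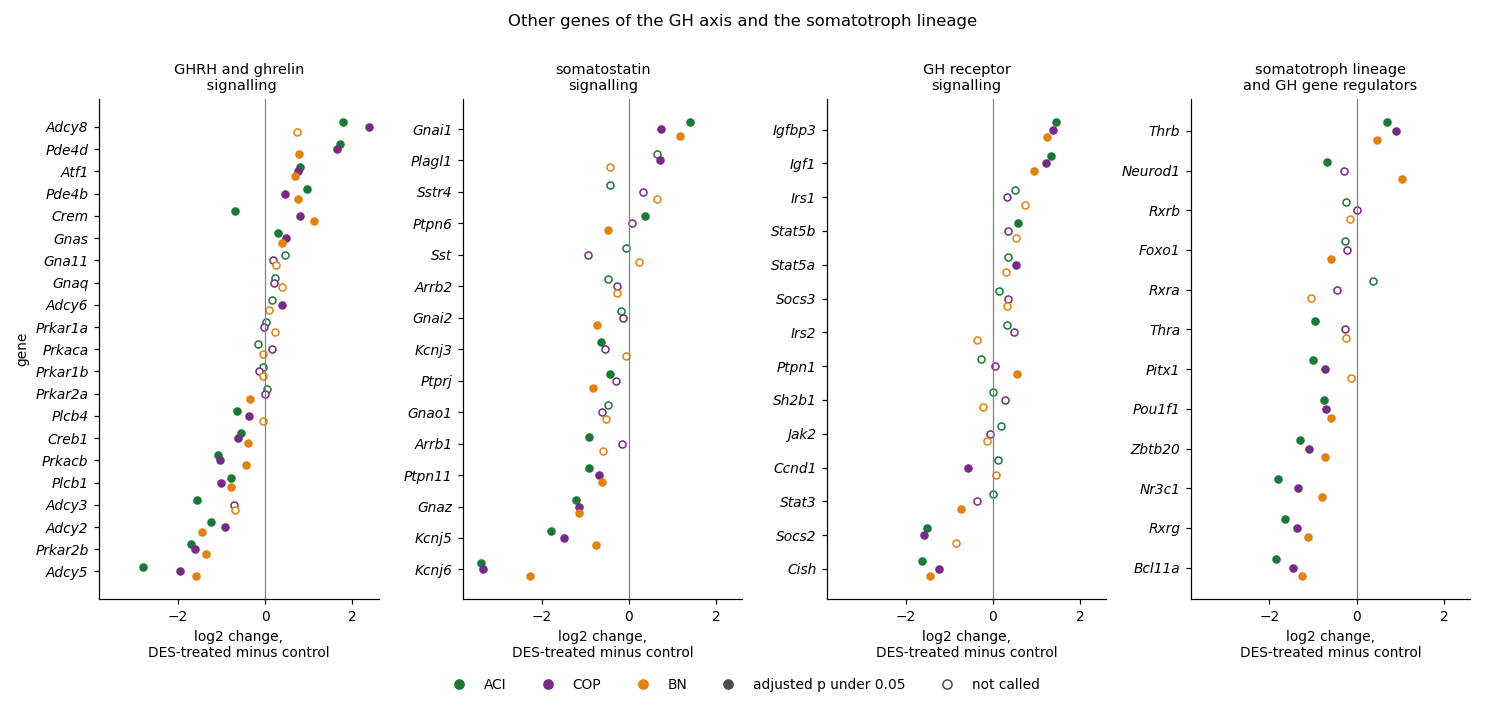
Log2 change (x; DES-treated minus control) of each tested gene of the 4 lists (y, 1 row per gene, sorted by its mean change), coloured by strain and filled where the adjusted p was under 0.05. Kcnj6 and Adcy5 stand farthest to the left, at -3.39 and -2.81 in ACI rats, and Igf1 and Igfbp3 to the right of 0 in each strain.

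The genes most alike to each member in their pattern over the 21 arrays, as a description that includes the treatment difference itself, were Tmem248, Spetex2l2 and Hfe for Sstr3 (Pearson's r = 0.977, 0.974 and 0.972 on log2 signal, of 11738 genes) and Dgat2, Irf1 and Ypel5 for Ghrhr (0.945, 0.944 and 0.944). For Gh1 they were Cga, the shared alpha subunit of the glycoprotein hormones (0.97), Eif4a2 (0.938) and Resp18 (0.937). The likeness was weaker for Ghsr, whose best match was Ing2 (0.782), and for Sstr2 (Amer2, 0.843) and Sstr5 (Magi3, 0.85), and was 0.892 for Sstr1 with Pcolce and 0.937 for Ghr with Unc119b.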

How the data were processed

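Signals of 21 arrays were taken from the deposited table, as linear intensity that the authors scaled to 1 trimmed mean for all arrays. No source read here names their summarization program. The 57 control probe sets were left out. Gene names came from the platform annotation, by which 20826 probe sets have 1 symbol, 436 several and 9780 none. The 21828 probe sets tested lay above their array's 40th percentile in 3 or more cases, with the 13 member probe sets kept regardless (12 passed). Group means of log2(signal + 16) were fitted over all 6 groups in limma 3.58.1 (R 4.3.3, empirical Bayes with a variance trend), with Benjamini-Hochberg adjustment; the code was tested on simulated data. Strains were compared among controls, among DES-treated rats and in their response. Exact permutation tests used the difference of means.

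The members, the 4 pathway lists and the 10 marker lists were chosen with earlier results of these data known. All member probe sets are named, and so are the genes most alike to a member by Pearson's r. Of a list, up to 5 genes with the smallest adjusted p in any strain are named, with some others beside them. Of 26, 19, 17 and 21 listed genes, 21, 15, 14 and 12 could be tested. Replicate numbers were not taken to pair rats across groups, since correlations of same-numbered deviations were 0.004 to 0.281. Precision is limited by the number of arrays. Alternatives were the filter, the constant, the scaling, the variance model, the arrays fitted, blocks by replicate number and the cre covariate.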

Additional observations from a re-analysis of the deposited data

Results flagged for a closer look

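Of 39 groups of 4 DES-treated arrays, 3 held a sample far from the others, where chance alone gives about 1 in 20. Ghrhr 1369494_a_at read 219.6 in COP DES-treated replicate 1, above the other 3. Sstr2 1371174_s_at read 324.4 in ACI DES-treated replicate 1, above the other 3. Sstr5 1387468_at read 7.8 in BN DES-treated replicate 3, below the other 3.

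Of 39 tests of a difference in DES response between strains, 3 were called: Gh1 in ACI minus BN rats (-0.92), Sstr3 in ACI minus BN rats (0.91) and Sstr3 in COP minus BN rats (0.62). Of all probe sets, 14.2% were called in the ACI minus BN response, 0.531% in ACI minus COP and 5.25% in COP minus BN. Beside these shares, the count is not read as particular to the members.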

How the results depend on the processing

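Of 36 changes after DES and 13 called strain differences of single probe sets, direction and call were compared over 13 alternatives and 21 fits without 1 array each. The changes of Sstr3 and of Ghrhr 1370730_a_at after DES in each strain kept both in all of them. Of the 38 that were called, 12 kept call and direction throughout, 26 lost the call under at least 1 setting and 1 also turned in sign.

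Counts of called member probe sets moved by over 1.5 times as follows. With only the arrays numbered 3 and 4, which leave 1 control per strain, 4, 5 and 4 were called after DES in ACI, COP and BN rats, 0 between ACI and BN controls, 1 in the ACI minus BN response, 0 between COP and BN controls and 0 in the COP minus BN response; fewer arrays were fitted. With only the groups compared, 1 was called between ACI and BN controls, 1 in the ACI minus BN response, 1 between ACI and COP DES-treated rats and 0 in the COP minus BN response. Median centring left 1 in the ACI minus BN response, as did the arrays numbered 1 and 2, which also gave 1 between ACI and COP controls. The cre covariate gave 1 between ACI and COP DES-treated rats, and 64 added before log2 gave 0 in the COP minus BN response. Without 1 array each, the counts after DES ran between 6 and 9 (ACI), 6 and 8 (COP), and 8 and 9 (BN). They ran between 1 and 2 for ACI against BN controls, 2 and 4 for ACI against BN DES-treated rats, 1 and 2 for the ACI minus BN response, 4 and 5 for COP against BN DES-treated rats, and 0 and 1 for the COP minus BN response, and the others did not move. Leaving out 1 array each, the Gh1 change in ACI rats ran between -0.27 and 0.22, that of Sstr1 1387692_a_at in BN rats between -0.14 and 0.66, and that of Ghsr between -0.0295 (without COP DES-treated replicate 3) and 0.49 in COP and between -0.10 and 0.38 in BN rats. The exact test reached its smallest p for 22 of 39 after median centring and for 20 with 1 or 64 added, again with no share over all probe sets. It could not pass the threshold with an array left out. Gh1 turned in sign in ACI rats after median centring (0.19) and with the arrays numbered 1 and 2 (0.25), and in COP rats after quantile normalization (-0.15). Of changes that were not called, the sign also turned for Sstr1 1387692_a_at with the arrays numbered 1 and 2 in COP rats (-0.32) and with those numbered 3 and 4 in BN rats (-0.50), where Sstr1 1369770_at (-0.14) and Ghsr (-0.36) turned too. The cause was not tested for the other settings.

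With the replicate block, 9 probe sets were called after DES in each strain, since Sstr2 1371174_s_at was then called in ACI (0.70, adjusted p = 0.00956) and COP rats (0.68, adjusted p = 0.0134); it ended no call.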
